A study of Mus musculus with 6 samples.

Results

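Imprinted genes were followed in cultured muscle stem cells (MuSCs) exposed to endothelin-3 (ET-3) or neurotensin (NT), both peptide ligands of G protein-coupled receptors. The 10 genes H19, Dlk1, Meg3, Rian, Mirg, Peg3, Mest, Grb10, Plagl1 and Ndn were taken from the table by their symbols. All 10 were among the 18943 genes of the table, and all 10 passed the filter on low values, which left 13921 genes for testing. The filter took the mean over all 6 libraries, and Mirg and Dlk1, at 1 to 4 under the ligands, passed it through DMSO alone. The cells were wild-type MuSCs of C57BL/6 mice, 8 weeks old, purified by FACS and kept in culture for 5 days. There were 2 libraries with DMSO as control, 2 with ET-3 and 2 with NT. The labels give 100 nM for both ligands, while the methods of the study give higher, unequal concentrations. The labels tie no library to an animal or culture. The design text of the series speaks of triplicate sequencing, and a legend of the study has each plotted point stand for the mean of several biological samples, so how the libraries analysed here relate to animals or cultures is unclear. The p-values measure the spread between these libraries, which may be technical. The study asks whether ligands of these receptors hold MuSCs in a quiescent state.

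Imprinted genes are transcribed mainly from the chromosome inherited from 1 parent, because DNA methylation set in the egg or the sperm marks the copies differently. Many sit in clusters in which a paternally expressed growth gene and a maternally expressed noncoding RNA share control elements, as Dlk1 and Meg3 do on chromosome 12 and Igf2 and H19 do on chromosome 7. Several are abundant in embryonic muscle and decline after birth. The maternally expressed genes here are H19, Meg3, Rian, Mirg and Grb10, and the paternally expressed ones are Dlk1, Peg3, Mest, Plagl1 and Ndn. Total reads in an inbred strain do not separate the parental copies, so no value below says which allele was read.

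Several of these genes carry microRNAs. RefSeq places 20 miRNA hairpins on the same strand inside 5 of the genes, with 38 mature arms and 37 distinct seeds. Mirg, the microRNA-containing gene, holds 14 of the hairpins, Rian holds 3, and H19, Meg3 and Mest hold 1 each. The arms below show which mature RNAs lie within each host transcript, in GRCm38.p6, with the seed (bases 2 to 8) in capitals. Both miR-675 arms come from an H19 exon, miR-770-5p lies in Meg3, miR-370-3p in Rian, and miR-335-5p in Mest. The remaining arms lie in Mirg, where miR-453 and miR-496a-5p were the only hosted arms that shared a seed.
miR-675-5p: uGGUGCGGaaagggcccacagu
miR-675-3p: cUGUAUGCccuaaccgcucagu
miR-770-5p: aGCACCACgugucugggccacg
miR-370-3p: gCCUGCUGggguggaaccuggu
miR-335-5p: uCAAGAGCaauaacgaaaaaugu
miR-134-5p: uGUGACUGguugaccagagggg
miR-410-3p: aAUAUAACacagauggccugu
miR-453: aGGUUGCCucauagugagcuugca
miR-496a-5p: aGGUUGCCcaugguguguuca
Only 1 of the 20 hairpin genes had a row in the table, and the mature RNAs were not measured. A host gene value is therefore no measure of its miRNAs.

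Windows of 300 bases around RefSeq starts (250 before and 50 after) were at hand for 9 of the 10 genes, in 13 windows. They were searched on both strands for TGCCGC, the core recognised by ZFP57, a zinc finger protein that keeps methylation at imprinted regions. They were also searched for TATAAA, the TATA box, and for CAGCTG, an E-box. TGCCGC occurred in windows of 4 genes (Meg3, Mest, Grb10 and Plagl1) and in 11.6% of all 32851 promoter windows. TATAAA occurred for 1 gene, Meg3, and in 13.6% of all windows. CAGCTG occurred for 1 gene, in an upstream Mest window, and in 16.3% of all windows. The members are counted here by gene, some with several windows, and the shares by window, so the figures are not directly comparable. The pairs of CG in a window ran from 0 for Rian to 45 for a Grb10 window, with a median of 7 over all windows. The 4 windows below show Meg3 and Rian, neighbours that fell together, and Mest and Plagl1, which share TGCCGC. Mest fell, while Plagl1 rose by only 0.17 and 0.22 on the log2 scale, a rise that did not pass with treated pairs averaged. The 4 windows lie at chr12:109540746-109541045, chr12:109603695-109603994, chr6:30737800-30738099 and chr10:13090582-13090881 of GRCm38.p6, all on the plus strand, and capitals mark matches.
Meg3: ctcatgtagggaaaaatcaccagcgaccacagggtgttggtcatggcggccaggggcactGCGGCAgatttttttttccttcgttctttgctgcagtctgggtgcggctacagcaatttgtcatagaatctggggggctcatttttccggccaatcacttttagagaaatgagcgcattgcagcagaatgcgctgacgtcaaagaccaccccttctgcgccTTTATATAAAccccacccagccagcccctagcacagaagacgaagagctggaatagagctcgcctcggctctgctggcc
Rian: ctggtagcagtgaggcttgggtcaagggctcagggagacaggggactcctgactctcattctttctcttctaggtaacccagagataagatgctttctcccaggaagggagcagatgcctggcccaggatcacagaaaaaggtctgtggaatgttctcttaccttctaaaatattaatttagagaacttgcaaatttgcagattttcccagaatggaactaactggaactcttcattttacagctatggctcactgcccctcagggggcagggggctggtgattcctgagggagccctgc
Mest: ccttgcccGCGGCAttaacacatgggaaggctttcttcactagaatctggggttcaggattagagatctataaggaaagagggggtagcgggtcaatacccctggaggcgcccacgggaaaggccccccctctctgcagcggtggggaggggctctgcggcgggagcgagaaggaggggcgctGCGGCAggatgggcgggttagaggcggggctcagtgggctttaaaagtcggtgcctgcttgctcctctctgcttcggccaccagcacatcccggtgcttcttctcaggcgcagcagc
Plagl1: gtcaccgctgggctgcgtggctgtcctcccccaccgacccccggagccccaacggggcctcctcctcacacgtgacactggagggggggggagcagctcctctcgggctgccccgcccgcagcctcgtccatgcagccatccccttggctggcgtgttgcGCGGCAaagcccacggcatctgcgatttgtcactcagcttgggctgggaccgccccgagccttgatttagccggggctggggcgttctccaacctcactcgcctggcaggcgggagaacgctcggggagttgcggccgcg
In Meg3 the first base of TGCCGC, on the opposite strand, lay at -190 from the start, and TATAAA matched on both strands at -25 and -29, where the matches overlap. The Mest window held TGCCGC at -242 and -67, and the Plagl1 window at -90, all on the opposite strand. Rian held 0 CG pairs and no match, whereas Meg3 held 13, Mest 17 and Plagl1 26. A match is a description of letters and not a bound site.

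The library totals ran from 4214458 to 4600575 in the deposited scaled units, which correspond to about 3629074 to 5396233 counted reads. The ET-3 pair and the NT pair differed by no more than counting noise (mean chi-square per gene 0.888 and 0.941, where repeated sampling of the same RNA gives 1), and the DMSO pair by more (1.44). Each library was kept as 1 sample, and a fit with each treated pair averaged is given beside the genes and lists named below where it changes a call or a count. Of 9 satellite cell markers all had a row, but they did not move together: of 8 tested, 3 passed lower and 3 higher under ET-3, and 5 lower and 3 higher under NT. Pax7 stood at 857 and 1070 in DMSO and between 1599 and 1754 under the ligands, a rise that did not pass with treated pairs averaged (limma adjusted p = 0.0848 and 0.102). Cdh15, the gene of M-cadherin, fell from 1547 and 1746 to between 436 and 496, with log2 fold changes of -1.80 and -1.82 by limma. Calcr was at 0 to 3 in all libraries. Summed markers of endothelial cells were 12 and 24 in DMSO and 85 to 107 under the ligands, and those of fibroadipogenic cells 136 and 147 in DMSO and 64 to 90 under the ligands. The fall of the latter sum lay in Col15a1, at 80 and 82 in DMSO and 0 to 1 under the ligands, and in Dcn, at 9 and 17 in DMSO and 0 to 2 under the ligands. Ly6a stood at 18 to 27 in DMSO and 37 to 52 under the ligands, and Pdgfra at 20 and 30 in DMSO and 26 to 44 under the ligands. Macrophage markers summed to 21 to 45 and Schwann cell markers to 32 to 69 over all libraries, with Emcn, Dpt, Ptprc, Adgre1 and Sox10 without a row. Smooth muscle and pericyte markers summed to 959 and 1042 in DMSO and to 443 to 525 under the ligands. Their fall was uneven, and of 3 tested, 2 were called at least 2-fold lower under each ligand. Their log2 fold changes ran from -5.82 to -0.38 under ET-3 and from -4.77 to -0.28 under NT by limma. The rise of the endothelial markers was uneven too, from 0.83 to 4.72 under ET-3 for 3 tested. Of those 3, 2 were called higher under ET-3 and 3 under NT. The 13 myogenic differentiation markers all fell at least 2-fold, from sums of 37105 and 40613 to 2082 to 2610, and the 8 proliferation markers rose under both ligands by less than 2-fold, 5 of them also with treated pairs averaged. These shifts move with every result below and their part in them was not tested. In bulk RNA, fewer cells of a type and less RNA per cell cannot be told apart.

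A gene was called when its adjusted p was at most 0.05 and its fold change at least 2, on log2(value + 1). By this rule 5 of 10 members were lower under ET-3, where 14.9% of all tested genes were called lower, and 5 of 10 under NT, where 13.2% were. The same genes, Meg3, Rian, Mirg, Dlk1 and Mest, were called in both comparisons, which share the DMSO libraries, and over all tested genes 12.5% were called lower under both ligands. Meg3, Rian, Mirg and Dlk1 lie in the same imprinted cluster, so the 5 called members are not separate loci. Since Mirg and Dlk1 passed the filter on low values through DMSO alone, only a fall could be called for them. No member was called higher by limma (6.62% of genes under ET-3 and 7.3% under NT), and that count was also 0 at an unadjusted p and with voom. By adjusted p alone, 8 members were lower and 1 was higher under each ligand, against 33.2% lower and 30.6% higher genes for ET-3 and 32.5% and 29.7% for NT. The members had a median log2 fold change of -1.49 under ET-3 and of -1.42 under NT, whereas that of all tested genes was -0.01 in each comparison. Summed over the 10 genes, the members took 0.262% and 0.27% of the DMSO libraries, 0.172% and 0.173% of the ET-3 libraries, and 0.164% and 0.159% of the NT libraries.

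**Figure D1:**
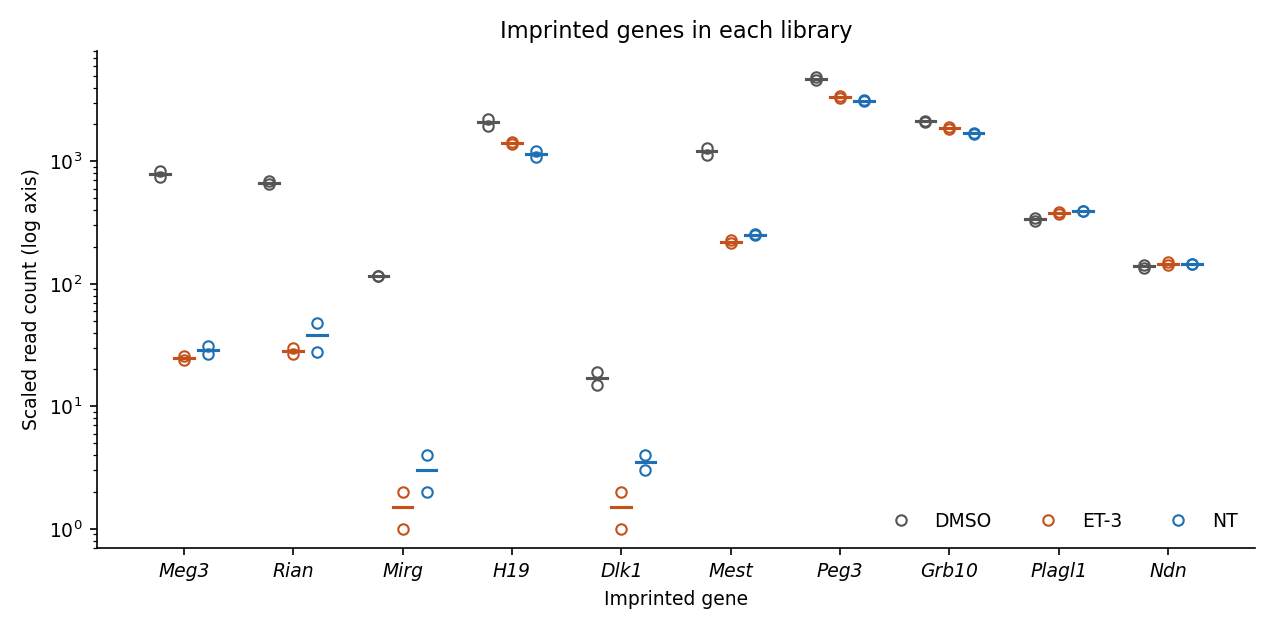
Scaled read count (log axis) of the 10 imprinted genes in each of the 6 libraries, with circles for libraries and bars for group means of DMSO, ET-3 and NT. Meg3, Rian, Mirg, Dlk1 and Mest sit well below DMSO under both ligands, H19, Peg3 and Grb10 a little below it, and Plagl1 and Ndn near it.

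Among the 10 members, the noncoding RNAs of the Dlk1-Meg3 cluster showed the largest changes. Meg3 (ENSMUSG00000021268, chr12:109541001-109571726, plus strand) is a maternally expressed noncoding RNA, the first of the row of noncoding genes in the cluster. It was read at 835 and 748 in DMSO, 26 and 24 under ET-3, and 31 and 27 under NT. The groups with ligand lay far below DMSO and did not overlap it. Its mean of 792 ± 61.5 (SD, n = 2) in DMSO was 31.7-fold that under ET-3 (25 ± 1.41) and 27.3-fold that under NT (29.0 ± 2.83). The log2 fold changes were -4.93 (SE 0.14, adjusted p = 3.03e-09) and -4.72 (SE 0.14, adjusted p = 4.35e-09) in limma with Benjamini-Hochberg adjusted p-values.

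Rian (ENSMUSG00000097451, chr12:109603808-109661716, plus strand) is a noncoding RNA that hosts small nucleolar RNAs as well as miRNAs. It stood at 687 and 651 in DMSO, 27 and 30 under ET-3, and 48 and 28 under NT. The ligand libraries were all low and the NT pair spread over the ET-3 pair. Rian fell by 4.51 under ET-3 (SE 0.21, adjusted p = 6.79e-08) and by 4.15 under NT (SE 0.21, adjusted p = 1.31e-07) on the log2 scale in limma with Benjamini-Hochberg adjusted p-values. Mirg (ENSMUSG00000097391, chr12:109729764-109749460, plus strand), host of the miR-134 and miR-410 arms printed above, was at 115 in both DMSO libraries, 1 and 2 under ET-3, and 2 and 4 under NT. Both ligand groups were close to nothing. In recovered reads Mirg had 217 in DMSO, 3 under ET-3 and 7 under NT, so that after scaling its level was 1.49% of DMSO under ET-3 (exact 95% interval 0.305 to 4.41) and 2.49% under NT (0.989 to 5.21), intervals that cover counting error only. Its log2 fold changes were -5.57 and -4.90 (SE 0.39, limma, Benjamini-Hochberg adjusted p = 1.01e-06 and 2.67e-06). They depend on the pseudocount and ran from -5.90 to -4.21 and from -5.27 to -3.92 over the alternatives.

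Dlk1 (ENSMUSG00000040856, chr12:109452823-109463336, plus strand), the paternally expressed gene of the same cluster, encodes a membrane protein with EGF repeats related to Notch ligands. Its level was low throughout, at 19 and 15 in DMSO, 1 and 2 under ET-3, and 3 and 4 under NT. The order of groups was kept in every library, with DMSO on top. In recovered reads it had 32 in DMSO, 3 under ET-3 and 9 under NT, or 10.1% of DMSO under ET-3 (exact 95% interval 1.98 to 32.3) and 21.7% under NT (9.11 to 46.5). The log2 fold changes were -2.87 and -2.00 (SE 0.42, limma, Benjamini-Hochberg adjusted p = 0.000197 and 0.00216). A filter at a mean of 20 removed Dlk1 from testing and left 4 called members under each ligand. Dio3, the paternal deiodinase gene at the far end of the cluster, had 0 to 5 in any library and was not tested. Begain, on the other side of Dlk1, went the opposite way, with 5 and 2 in DMSO, 18 and 15 under ET-3 and 15 and 12 under NT. Begain rose by 2.04 and 1.77 on the log2 scale (limma, Benjamini-Hochberg adjusted p = 0.00148 and 0.00369). With treated pairs averaged Begain did not pass (limma adjusted p = 0.124 and 0.154, the upper ends of ranges over the alternatives from 0.000629 and 0.00227).

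Within the cluster the RNAs kept their proportions to different degrees. The Rian to Meg3 ratio was 0.823 and 0.870 in DMSO, 1.04 and 1.24 under ET-3, and 1.53 and 1.04 under NT. The Mirg to Meg3 ratio was 0.139 and 0.155 in DMSO and between 0.0741 and 0.179 under the ligands. There Mirg had 3 reads over the ET-3 pair and 7 over the NT pair. The Meg3 to Dlk1 ratio was 41.8 and 46.8 in DMSO and between 5.60 and 13.5 under the ligands. There Dlk1 had 3 reads over the ET-3 pair and 9 over the NT pair. Here and in the ratios below, 1 was added to each value. The Mirg and Dlk1 ratios under the ligands, and so the size of their movement, depend on it. The values were not divided by length, so only movement between libraries can be read, and none of the ratios was tested.

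Mest (ENSMUSG00000051855, chr6:30723547-30748465, plus strand) is a paternally expressed gene of mesoderm that encodes a hydrolase-like protein. It stood at 1123 and 1291 in DMSO, 216 and 227 under ET-3, and 250 and 255 under NT. Both ligand groups were tight and far below DMSO. The DMSO mean was 5.45-fold the ET-3 mean and 4.78-fold the NT mean, with log2 fold changes of -2.44 and -2.25 (SE 0.07, limma, Benjamini-Hochberg adjusted p = 3.28e-09 and 5.67e-09). Copg2, a coat protein gene on the opposite strand, covers 23.1% of the exonic bases of Mest. Copg2 stood at 429 and 431 in DMSO and 249 to 280 under the ligands, and fell, with log2 fold changes of -0.70 and -0.66 (limma, Benjamini-Hochberg adjusted p = 1.28e-05 and 1.99e-05). If reads were counted without strand, those of the shared stretch cannot be assigned to either gene. The Mest to Copg2 ratio went from 2.61 and 2.99 in DMSO to 0.811 to 0.959 under the ligands.

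H19 (ENSMUSG00000000031, chr7:142575529-142578143, minus strand), the maternally expressed noncoding RNA that contains miR-675, was among the most abundant members. It was at 1943 and 2222 in DMSO, 1452 and 1389 under ET-3, and 1224 and 1093 under NT. The groups did not overlap. H19 fell by 0.55 under ET-3 (SE 0.07, adjusted p = 7.78e-05) and by 0.84 under NT (SE 0.07, adjusted p = 3.85e-06) on the log2 scale in limma with Benjamini-Hochberg adjusted p-values, both short of 2-fold. Neither passed when treated pairs were averaged, which gave the highest of the adjusted p-values over the alternatives (limma, 7.79e-08 to 0.0826 under ET-3 and 7.30e-11 to 0.0542 under NT). The opposite-strand genes Gm27483 and Gm27786 cover 5.73% of the exonic bases of H19, so reads there are uncertain.

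Its partner Igf2, the paternally expressed insulin-like growth factor, changed far more than H19. Igf2 was at 630 and 710 in DMSO, 27 and 33 under ET-3, and 46 and 29 under NT. It fell, with log2 fold changes of -4.44 and -4.16 (SE 0.20, limma, Benjamini-Hochberg adjusted p = 5.54e-08 and 9.44e-08). The H19 to Igf2 ratio was 3.08 and 3.13 in DMSO and 26.1 to 51.9 under the ligands. Igf2os, the antisense transcript, fell, with log2 fold changes of -3.79 and -3.48 (limma, Benjamini-Hochberg adjusted p = 1.64e-06 and 3.17e-06). Nctc1, a noncoding RNA gene on the far side of H19, had 88 and 95 in DMSO and 0 in all 4 ligand libraries, at least 53.2-fold lower under ET-3 and 74.3-fold lower under NT with a floor of 3 counts over the group. Of 13 tested genes within 250 kb of H19, 10 were called lower under each ligand, beside 14.9% and 13.2% of all tested genes, and with treated pairs averaged 9 were called under ET-3 and 10 under NT. Their median log2 fold changes were -2.42 and -2.44. The 13 genes are not separate loci throughout, since Gm27483 and Gm27786 lie within H19. They include the troponin genes Tnnt3 and Tnni2, which had log2 fold changes of -2.92 and -3.23 under ET-3 and of -3.06 and -3.24 under NT and which belong to differentiated muscle. Mrpl23 and Ifitm10 in the same window did not pass the test under either ligand. Nctc1 and Prr33, both among those called, passed the filter on low values through DMSO alone. Windows around other members differed. Under each ligand 2 of 3 tested neighbours of Grb10 and 1 of 2 of Peg3 were called lower. The count was 0 of 3 for Mest and 0 of 2 for Ndn, and for Plagl1 1 of 6 under ET-3 and 0 under NT.

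Peg3 (ENSMUSG00000002265, chr7:6703892-6730431, minus strand), a paternally expressed zinc finger gene, had the highest raw values. They were 4615 and 4839 in DMSO, 3282 and 3416 under ET-3, and 3183 and 3090 under NT. Every ligand library was below both DMSO libraries. Peg3 fell, with log2 fold changes of -0.50 and -0.59 (SE 0.04, limma, Benjamini-Hochberg adjusted p = 6.01e-06 and 1.89e-06). Zim1, the maternally expressed zinc finger gene next to it, stood at 1065 and 933 in DMSO, 300 and 368 under ET-3 and 375 and 408 under NT, and fell, with log2 fold changes of -1.58 and -1.35 (limma, Benjamini-Hochberg adjusted p = 3.93e-07 and 1.28e-06). Usp29 is a paternally expressed protease gene on the plus strand, at chr7:6730578-6967219, next to the start of Peg3. It had 180 and 137 in DMSO, 92 and 120 under ET-3 and 121 and 127 under NT. Usp29 had a log2 fold change of -0.58 under ET-3 (adjusted p = 0.00933) and -0.34 under NT (adjusted p = 0.0880), with limma and Benjamini-Hochberg. The ET-3 value did not pass with treated pairs averaged (limma adjusted p = 0.199, range over the alternatives 0.00179 to 0.199), nor without DMSO replicate 1 (0.168) or ET-3 replicate 1 (0.121).

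Grb10 (ENSMUSG00000020176, chr11:11930508-12038683, minus strand) encodes an adaptor that binds and restrains insulin and IGF receptors. It was at 2144 and 2088 in DMSO, 1902 and 1825 under ET-3, and 1703 and 1679 under NT. The groups were ordered without overlap, with small steps between them. Grb10 fell by 0.18 under ET-3 (SE 0.04, adjusted p = 0.00333) and by 0.32 under NT (SE 0.04, adjusted p = 8.60e-05) in limma with Benjamini-Hochberg adjusted p-values. The ET-3 value did not pass when libraries were scaled to their totals (-0.09, limma adjusted p = 0.0503), and neither passed with treated pairs averaged. Over the alternatives the limma adjusted p ran from 0.000618 to 0.0885 under ET-3 and from 5.68e-07 to 0.0504 under NT, the upper ends being those of averaged pairs. Ddc, the imprinted decarboxylase gene next to it, had 182 and 171 in DMSO, 8 and 10 under ET-3, and 7 and 3 under NT, and fell, with log2 fold changes of -4.16 and -4.97 (SE 0.35, limma, Benjamini-Hochberg adjusted p = 3.39e-06 and 1.03e-06).

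Plagl1 (ENSMUSG00000019817, chr10:13060504-13131694, plus strand), a zinc finger transcription factor known to restrain the cell cycle, was the only member that rose. It was at 346 and 327 in DMSO, 372 and 385 under ET-3, and 392 and 391 under NT. The ligand libraries were all above DMSO by a narrow margin. Plagl1 rose by 0.17 (95% interval 0.04 to 0.30, adjusted p = 0.0262) and by 0.22 (0.09 to 0.35, adjusted p = 0.00784) on the log2 scale in limma with Benjamini-Hochberg adjusted p-values. Neither passed with treated pairs averaged, the upper ends of ranges over the alternatives of 0.00296 to 0.172 under ET-3 and 0.000613 to 0.127 under NT (limma adjusted p), and the ET-3 value also failed in a fit of 2 groups alone and with any library but DMSO replicate 1 left out (limma adjusted p = 0.0523 to 0.114). The NT value failed without NT replicate 1 or 2 (limma adjusted p = 0.0531 and 0.0509).

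Ndn (ENSMUSG00000033585, chr7:62346569-62350262, plus strand) encodes necdin, a MAGE family protein of the Prader-Willi region. It was at 143 and 136 in DMSO, 142 and 150 under ET-3, and 145 and 144 under NT. The libraries lay close together. Its log2 differences were 0.07 under ET-3 (95% interval -0.15 to 0.28, adjusted p = 0.568) and 0.05 under NT (-0.16 to 0.26, adjusted p = 0.659) in limma with Benjamini-Hochberg adjusted p-values. In the same region Snrpn had 55 in both DMSO libraries and 25 to 39 under the ligands, and fell, with log2 fold changes of -0.91 and -0.56 (limma, Benjamini-Hochberg adjusted p = 0.00386 and 0.0433). The NT value of Snrpn did not pass with treated pairs averaged (limma adjusted p = 0.0777), with library totals, with the upper quartile, or without any 1 of the DMSO or NT libraries (limma adjusted p up to 0.172). Mkrn3 had 30 and 11 in DMSO and 16 to 23 under the ligands and did not pass (limma, Benjamini-Hochberg adjusted p = 0.779 and 0.564).

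**Figure D2:**
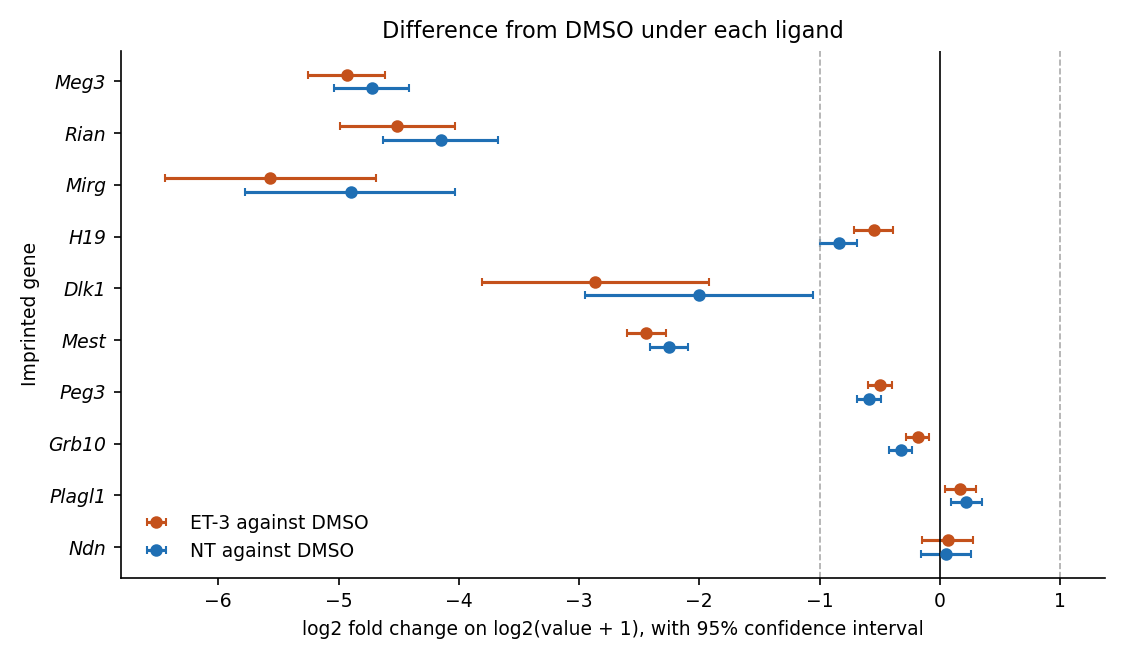
Log2 fold change of each imprinted gene against DMSO on log2(value + 1), with 95% confidence intervals from limma (ET-3 orange, NT blue). Dashed lines mark a 2-fold difference, and the intervals of Meg3, Rian, Mirg, Dlk1 and Mest lie beyond it for both ligands.

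Per kb of exonic length, DMSO levels ran from 847 for H19 through 355 for Peg3, 306 for Mest and 233 for Grb10 to 43.8 for Meg3, 43.0 for Plagl1, 37.8 for Ndn, 36.7 for Rian, 15.8 for Mirg and 3.01 for Dlk1. The median of tested genes was 44.1. The ranges of Meg3 and Plagl1 overlapped, as did those of Ndn and Rian. Under ET-3 the order became H19 (577), Peg3 (251), Grb10 (205), Mest (56.2), Plagl1 (48.4), Ndn (39.5), Rian (1.56), Meg3 (1.38), Dlk1 (0.265) and Mirg (0.206). The last pair overlapped. NT gave the same order, with 471 for H19 and 0.411 for Mirg, and there Rian and Meg3 also overlapped, as did Dlk1 and Mirg.

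NT and ET-3 were compared directly. No member passed in limma (2.69% of tested genes did in either direction), while 3 of 10 had an unadjusted p below 0.05 and 2 of 10, H19 and Grb10, passed with voom on recovered reads. The member nearest to the threshold was H19, lower under NT with a log2 difference of -0.30 (95% interval -0.45 to -0.14, limma, Benjamini-Hochberg adjusted p = 0.0587), and its adjusted p in limma ran from 0.00552 to 0.712 over the alternatives. Genes of like read depth per base as H19 had a median of -0.23 in this comparison, against 0.03 over all tested genes. The intervals for the cluster RNAs were -0.11 to 0.52 for Meg3, -0.12 to 0.83 for Rian, -0.21 to 1.53 for Mirg and -0.08 to 1.81 for Dlk1, so differences between the ligands within these bounds were not detectable at this depth.

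The patterns of Mirg, Meg3 and Rian, the members with the largest changes, were set against all tested genes by the distance of their log2 profiles over the 6 libraries. Rian lay nearest to Igf2 (distance 0.23), then to Inpp5j (0.30) and Ephb3 (0.42). Meg3 lay nearest to Coq8a (0.27), Awat2 (0.32) and Cidea (0.34), and Mirg to Tas1r1 (0.44), Adprhl1 (0.55) and Postn (0.82). Among the members, Meg3 and Rian were 1.10 apart, Meg3 and Mirg 1.25, and Plagl1 and Ndn 0.28. Such distances describe likeness in these libraries only. Under the ligands they rest on few reads for Mirg itself and for Tas1r1, Adprhl1, Postn, Awat2, Cidea and Inpp5j.

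Of 75 other imprinted genes listed, 57 had a row and 49 were tested. Under ET-3, 8 were called lower and 4 higher, beside 14.9% and 6.62% of all tested genes. Under NT, 7 were called lower and 4 higher, beside 13.2% and 7.3%. With treated pairs averaged, 7 were called lower and 3 higher under each ligand, Begain being lost under both and Snhg14 under ET-3. The median log2 fold change was -0.23 and -0.13. Grouped by the allele assigned in the list, the maternal and paternal genes had medians of -0.27 and -0.17 under ET-3 and -0.22 and -0.06 under NT. These assignments, such as Ddc to the maternal group and Ampd3 to the paternal one, were not checked for each gene or for this tissue and may be wrong. The medians by allele rest on them and cannot be relied on. Cdkn1c, a maternally expressed inhibitor of cyclin-dependent kinases, had 145 and 143 in DMSO, 4 and 2 under ET-3, and 6 and 7 under NT, and fell, with log2 fold changes of -5.23 and -4.28 (SE 0.33, limma, Benjamini-Hochberg adjusted p = 4.91e-07 and 2.12e-06). Nnat, a paternally expressed gene for a small membrane protein, went from 77 and 85 to 2 and 3 under ET-3 and 3 and 4 under NT. It fell, with log2 fold changes of -4.56 and -4.19 (limma, Benjamini-Hochberg adjusted p = 1.72e-06 and 3.32e-06). Nnat passed the filter on low values through DMSO alone. Phlda2, close to Cdkn1c, was at 0 to 4 in all libraries and was not tested.

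Zdbf2 (727 and 679 in DMSO, 129 to 194 under the ligands) fell, with log2 fold changes of -2.27 and -1.91, and Airn, the noncoding RNA opposite Igf2r, fell, with log2 fold changes of -2.11 and -2.03. Those called higher besides Begain were Atp10a, a phospholipid-transporting ATPase gene (82 and 77 in DMSO, 210 to 272 under the ligands), Ampd3, an AMP deaminase gene (357 and 336 in DMSO, 724 to 829 under the ligands), and Nap1l5. Atp10a rose by 1.42 and 1.70 and Ampd3 by 1.21 and 1.16. Nap1l5 was at 2 in both DMSO libraries and 7 to 13 under the ligands, and it and Begain are the genes that a filter at a mean of 20 removes. Both passed the filter on low values through the ligand groups alone.

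**Figure D3:**
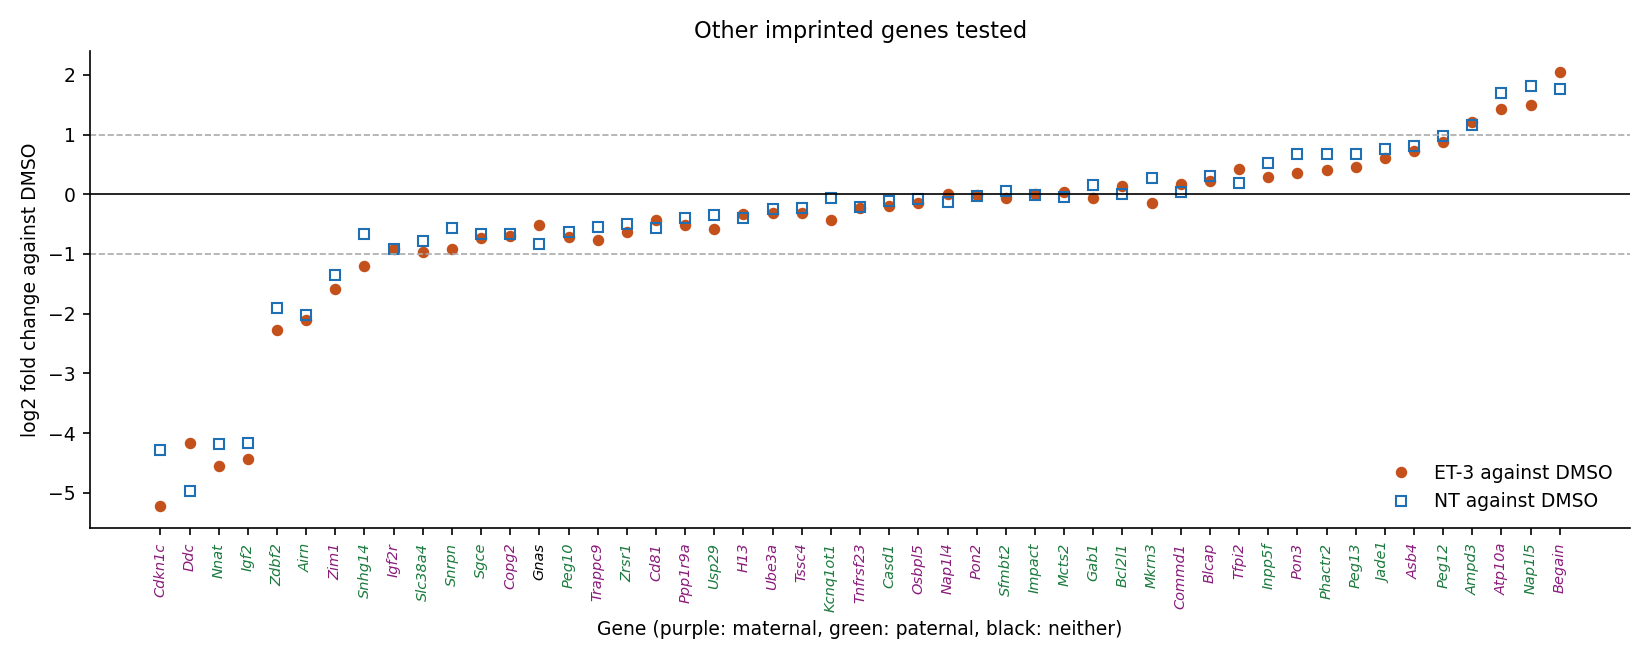
Log2 fold change against DMSO of the 49 other imprinted genes tested, ordered by the mean over both ligands (ET-3 filled circles, NT open squares). Names are coloured by the allele assigned in the list, which was not checked for each gene. Cdkn1c, Ddc, Nnat and Igf2 lie below -4, most genes lie between the dashed 2-fold lines, and Begain, Nap1l5, Atp10a and Ampd3 lie above them.

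Genes listed for imprint maintenance, a list that also holds methylcytosine oxidases, moved mostly upward, and most of them by less than 2-fold. Of 17 listed symbols, 14 were tested, and 9 passed higher under each ligand, 3 lower under ET-3 and 2 lower under NT. Of these, 2 higher and 1 lower reached 2-fold under each ligand. By adjusted p, 30.6% of all tested genes were higher and 33.2% lower under ET-3, and 29.7% higher and 32.5% lower under NT. With the 2-fold threshold as well, 6.62% were higher and 14.9% lower under ET-3, and 7.3% higher and 13.2% lower under NT. With treated pairs averaged, 4 passed higher and 1 lower under each ligand. Dnmt3b, a de novo DNA methyltransferase, had 17 and 21 in DMSO, 39 and 58 under ET-3, and 57 and 52 under NT, and rose by 1.29 and 1.48 (limma, Benjamini-Hochberg adjusted p = 0.00110 and 0.000473). With treated pairs averaged Dnmt3b did not pass (limma adjusted p = 0.0581 and 0.0542, the upper ends of ranges over the alternatives from 0.000312 and 5.99e-05). The methylcytosine oxidase genes Tet1 and Tet2 moved in opposite directions. Tet1 rose by 1.07 and 1.35 from 24 and 22 in DMSO, and Tet2 fell, with log2 fold changes of -1.37 and -1.33 from 492 and 477. Zfp57, named because its motif was searched, had 202 and 159 in DMSO and 171 to 201 under the ligands, with log2 differences of 0.01 and 0.05 (limma, Benjamini-Hochberg adjusted p = 0.953 and 0.752).

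In the insulin and IGF receptor axis, on which Igf2 and Grb10 act, 9 of 10 listed genes were tested, and 8 fell and 1 rose under each ligand by adjusted p, beside 33.2% lower and 30.6% higher among all tested genes under ET-3 and 32.5% and 29.7% under NT. Averaging the treated pairs left 4 that passed lower under ET-3 and 3 under NT, and 0 that passed higher under either. Those that reached 2-fold under both were Igf2 and Igf2bp1, an RNA-binding protein gene, which went from 32 and 30 to 6 to 10 and fell, with log2 fold changes of -1.93 and -1.77 (limma, Benjamini-Hochberg adjusted p = 0.000613 and 0.00115). The median log2 fold change of the list was -0.47 under ET-3 and -0.50 under NT.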

How the data were processed

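RNA-seq values of 6 libraries were analysed. Per the labels, reads were trimmed with Trimmomatic 0.38, aligned to mm10 with STAR 2.7.7a and counted with featureCounts 1.6.5, and DESeq2 1.30.0 was used. The methods of the study name other versions and a stranded kit, whereas the labels name a kit that does not mark strand, so strand handling is unclear. By those methods, reads over more than 1 gene were not counted. The deposited whole numbers behave as counts scaled by 1 factor per library and rounded (a signal, not raw counts), a step that no source used here describes: in 3 libraries 34 to 64 whole numbers occur in 0 genes, as scaling by factors of 1.09 to 1.19 gives. DMSO replicate 1 and both NT libraries had factors below 1 and 0 such gaps. In every library the factor was estimated from how often each whole number occurred, and reads were recovered from the factor. Lengths, overlaps and neighbours came from GENCODE M21 (18920 of 18943 genes matched by identifier).

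Values were tested as log2(value + 1) in limma 3.58.1 (R 4.3.3) with a trend, all 6 libraries in 1 fit, for genes with a mean of at least 5, and p-values were adjusted by Benjamini-Hochberg over 13921 genes. The fit was tested on simulated data. Intervals of read shares are exact binomial (scipy 1.17.1). Members and lists were chosen with earlier results of these data known. Named genes were the 10 members, other imprinted genes called in the same direction under both ligands, genes of the members' clusters, up to 4 genes of each of the 2 other lists, and the 3 nearest patterns of 3 members. Motifs and miRNAs came from RefSeq tables of GRCm38.p6. Alternatives were other pseudocounts, scalings and filters, no fold threshold, 2 groups alone, a replicate block, treated pairs averaged, voom and each library left out.

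Tables and figures were made in Python 3.11.15 using matplotlib 3.10.9 for plots, pandas 2.3.3 for tables and numpy 2.4.6 for arrays.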

Additional observations from a re-analysis of the deposited data

Results flagged for a closer look

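Gnas, an imprinted gene with several promoters that encodes the stimulatory G protein alpha subunit, differed between the ligands. It was chosen after its values were seen, as 1 of the 49 other imprinted genes, and the only one of them to pass the direct comparison of the ligands. It had 2302 and 2474 in DMSO, 1736 and 1611 under ET-3, and 1373 and 1297 under NT. Gnas was lower under NT than under ET-3 by -0.33 on the log2 scale (limma, Benjamini-Hochberg adjusted p = 0.0379), from -0.51 and -0.84 against DMSO. Genes of like read depth per base had a median of -0.08 in this comparison. The difference between the ligands kept its sign but did not pass in 10 of 16 alternatives (limma adjusted p from 0.0015 to 0.712), among them treated pairs averaged (0.712), a replicate block (0.0691) and any 1 library left out (0.16 to 0.459). The ET-3 difference from DMSO did not pass with treated pairs averaged (limma adjusted p = 0.0501).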

How the results depend on the processing

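The 5 members called lower under each ligand stayed at 5 under all alternatives except a filter at a mean of 20, which gave 4, and no fold threshold, which gave 8 lower and 1 higher under ET-3 and under NT. They were 5 under each ligand with a replicate block too, which is a fit that takes the replicate number as a pairing. It changed no other call of a member. Same-numbered libraries did not deviate together (correlations of -0.0080, -0.0704 and -0.0217). The ET-3 and NT pairs differed by no more than counting noise, so this check cannot tell whether the numbers stand for a pairing. Leaving out each library in turn also gave 5. For the other imprinted genes, no fold threshold gave 27 lower and 11 higher under ET-3, 23 lower and 11 higher under NT, and 1 lower for NT against ET-3. A filter at a mean of 20 gave 2 higher under each ligand, since it tests fewer genes. No value past the threshold changed sign. For NT against ET-3, where neither passed, Rian went from 0.36 to -0.02 without NT replicate 1, and Ndn from -0.01 to 0.01 with library totals and 0.02 without ET-3 replicate 2. Of the single-gene values, 15 lost and 6 gained the threshold, those lost being of H19, Grb10 and Plagl1 against DMSO and those gained of H19 and Grb10 for NT against ET-3. H19 for NT against ET-3 passed with a pseudocount of 5, library totals, the upper quartile, a filter at 20 and voom (adjusted p = 0.00552 to 0.0496 in limma with Benjamini-Hochberg adjusted p-values). The cause was not tested. Scaling to library totals moved the median of all genes to 0.08 and 0.10. Count tests on raw counts were not run, since the values are scaled. Each ligand group of 2 libraries had 3 to 9 reads of Mirg and of Dlk1. The size of the Mirg and Dlk1 changes is known only within the intervals given.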

Other observations

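Igf2r, the maternally expressed receptor that clears Igf2 and lies opposite Airn, was lower under both ligands together with Airn. It had 2312 and 2514 in DMSO, 1287 and 1277 under ET-3, and 1256 and 1297 under NT. It had log2 fold changes of -0.91 and -0.92 (SE 0.05, limma, Benjamini-Hochberg adjusted p = 1.54e-07 and 1.61e-07), short of 2-fold. Peg12, a paternally expressed gene near Ndn, rose by 0.88 and 0.97 from 170 and 154 in DMSO (limma, Benjamini-Hochberg adjusted p = 3.38e-06 and 1.89e-06). Both were named after their values were seen.

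Snhg14, the long noncoding RNA of the Prader-Willi region, was called lower under ET-3 and not under NT. It had 42 and 49 in DMSO, 18 and 20 under ET-3, and 32 and 25 under NT. It had log2 fold changes of -1.21 and -0.66 (limma, Benjamini-Hochberg adjusted p = 0.00137 and 0.0351). With treated pairs averaged neither passed (limma adjusted p = 0.0525 and 0.112). Set directly against each other, the ligands did not pass (0.55, limma, Benjamini-Hochberg adjusted p = 0.240). It was also named after its values were seen.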
